A study of Mus musculus with 12 samples.

Results

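The genes described here encode the nuclear-encoded subunits of the 5 complexes of mitochondrial oxidative phosphorylation, together with assembly factors that share their name stems. They were chosen by name, as every gene symbol beginning with Nduf, Cox and a digit, Uqcr or Atp5, or equal to Sdha, Sdhb, Sdhc or Sdhd, that had at least 1 listed N6-methyladenosine (m6A) peak in any of 6 lists. This gave 53 genes of the 11548 with a listed peak. Of the 53, 40 encode subunits and 13 encode assembly factors or other proteins, so the name pattern is wider than the subunits alone. The name pattern matched 106 annotated protein-coding genes, and the other 53 of them had no listed peak in any library.

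The study compared colon tissue from mice given TNBS (2,4,6-trinitrobenzenesulfonic acid, a hapten that provokes colitis) with colon tissue from mice on normal feeding. Both groups were male wild-type C57BL/6J mice aged 6 to 8 weeks and weighing 20 to 22 g. The model group received TNBS at 5% w/v into the colon. There were 3 TNBS and 3 normal samples, each with an RNA library pulled down with an antibody against m6A and an input library, and each pair gave 1 peak list. The labels do not say whether a sample came from 1 mouse or from pooled tissue, and they give no time after TNBS. The labels' extraction protocol speaks of retinas while the tissue field says colon. Of 12 retina marker genes, 1 had a listed peak, in TNBS 2 alone, whereas 8 of 11 colon epithelium markers had one.

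The respiratory chain passes electrons from NADH (complex I) and succinate (complex II) through ubiquinone to complex III, cytochrome c and complex IV, where oxygen is reduced. Complexes I, III and IV pump protons, and complex V, the ATP synthase, uses that gradient to make ATP. In the colon the lining epithelial cells are known to oxidise butyrate in their mitochondria as a main fuel. m6A is the commonest internal modification of mRNA, and FTO, the demethylase that the series title names, also removes a related modification, m6Am, which sits next to the mRNA cap.

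The peaks of these genes often lay on the first transcribed bases, and the sequences around 8 such starts are printed because these peaks carry the positional result given further on. Each stretch runs 5′ to 3′ on the gene's own strand, from RefSeq promoter windows of the GRCm38.p6 build, with 100 bases before the annotated transcription start and the first 30 transcribed bases. Capitals mark transcribed bases that lie inside a listed peak in at least 1 library. Ndufab1, Ndufb10 and Cox5a had such a peak in all 6 libraries. Cox5b had one on these 30 bases in 5 libraries, Sdhb in 4 and Uqcrfs1 in 3, while Ndufs4 and Cox14 had one in 2, TNBS 1 and TNBS 3.
Ndufab1, chr7:122101819-122101948, minus strand: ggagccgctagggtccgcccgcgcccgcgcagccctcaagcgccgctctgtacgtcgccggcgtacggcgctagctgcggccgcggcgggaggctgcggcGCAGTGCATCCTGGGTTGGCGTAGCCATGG
Ndufb10, chr17:24724394-24724523, minus strand: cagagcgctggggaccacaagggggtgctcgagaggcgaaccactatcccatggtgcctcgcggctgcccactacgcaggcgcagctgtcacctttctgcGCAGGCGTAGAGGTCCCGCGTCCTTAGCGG
Cox5a, chr9:57521132-57521261, plus strand: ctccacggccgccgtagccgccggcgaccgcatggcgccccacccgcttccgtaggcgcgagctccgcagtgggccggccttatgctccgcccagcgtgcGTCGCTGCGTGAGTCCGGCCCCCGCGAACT
Cox5b, chr1:36691387-36691516, plus strand: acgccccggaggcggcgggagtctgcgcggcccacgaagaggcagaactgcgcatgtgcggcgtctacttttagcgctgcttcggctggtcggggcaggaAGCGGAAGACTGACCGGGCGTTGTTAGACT
Sdhb, chr4:140961171-140961300, plus strand: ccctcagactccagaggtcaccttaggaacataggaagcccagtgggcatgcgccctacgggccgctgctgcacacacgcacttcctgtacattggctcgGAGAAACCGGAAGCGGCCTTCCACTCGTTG
Uqcrfs1, chr13:30545287-30545416, minus strand: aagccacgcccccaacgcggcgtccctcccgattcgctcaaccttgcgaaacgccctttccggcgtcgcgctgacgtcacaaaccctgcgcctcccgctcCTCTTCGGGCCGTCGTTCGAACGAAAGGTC
Ndufs4, chr13:114388065-114388194, minus strand: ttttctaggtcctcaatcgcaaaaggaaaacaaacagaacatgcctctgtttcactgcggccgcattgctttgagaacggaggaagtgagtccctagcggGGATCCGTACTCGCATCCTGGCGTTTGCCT
Cox14, chr15:99725518-99725647, plus strand: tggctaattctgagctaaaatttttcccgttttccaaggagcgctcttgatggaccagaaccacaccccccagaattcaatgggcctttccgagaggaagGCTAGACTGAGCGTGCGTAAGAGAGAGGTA

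A few facts of the 6 lists bear on every count. The TNBS lists held 18752, 10971 and 19285 peaks and the normal lists 16488, 16324 and 13992, so TNBS 2 stood apart with the shortest list. Peaks named Ddx3y, Kdm5d, Uty, Eif2s3y, Uba1y or Rbmy, genes of the Y chromosome, numbered 0 in TNBS 1, 10 in TNBS 2 and 0 in TNBS 3, against 8, 7 and 6 in the normal lists, although the labels call all the mice male. TNBS 1 and TNBS 3 therefore go against their labels in this count, and the results are given with TNBS 2 left out and for TNBS 2 alone. The authors' false discovery rate was 100% for 66.6%, 100% and 99.99% of TNBS peaks and for 10.5%, 13.7% and 37.8% of normal peaks, and no peak had a rate of 5% or less. Read depths are unknown, so an unlisted peak is not an unmethylated transcript. In bulk tissue, fewer cells of a type and less RNA per cell cannot be told apart. The exact two-sided permutation test of 3 against 3 cannot go below p = 0.1, so no single gene can pass 0.05.

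Respiratory chain genes with a listed peak numbered 47, 30 and 49 in TNBS 1, 2 and 3, against 35, 34 and 33 in normal 1, 2 and 3. TNBS 1 and TNBS 3 lay above every normal library and TNBS 2 lay below every one, so the groups overlapped. The means were 42 ± 10.4 in TNBS and 34 ± 1 in normal colon (SD, n = 3 each). The difference of 8 genes was smaller than the SD of the TNBS group. Without TNBS 2 the TNBS mean was 48. The place of TNBS 2 holds for the full lists. With each list cut to its 10971 top-scoring peaks, the genes numbered 36, 30 and 35 in TNBS and 23, 26 and 26 in normal libraries. TNBS 2 then lay above every normal library, and the groups did not overlap.

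The number of genes with a peak changed with the length of the list, so the share of the 53 was set beside the share of all 11548 genes. In the TNBS libraries 88.7%, 56.6% and 92.5% of the 53 had a peak, against 82.6%, 59.6% and 81.7% of all genes. In the normal libraries the shares were 66.0%, 64.2% and 62.3% of the 53, against 78.2%, 76.8% and 70.6% of all genes. The share of the 53 minus the share of all genes was thus 6.08, −3.01 and 10.8 percentage points in TNBS and −12.2, −12.7 and −8.36 points in normal colon. On this scale the groups did not overlap, TNBS 2 included. The means were 4.61 ± 7.0 points in TNBS and −11.1 ± 2.37 points in normal colon (SD, n = 3 each), a difference of 15.7 points. Since listed presence chose the genes, this is a description and was not tested.

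**Figure D1:**
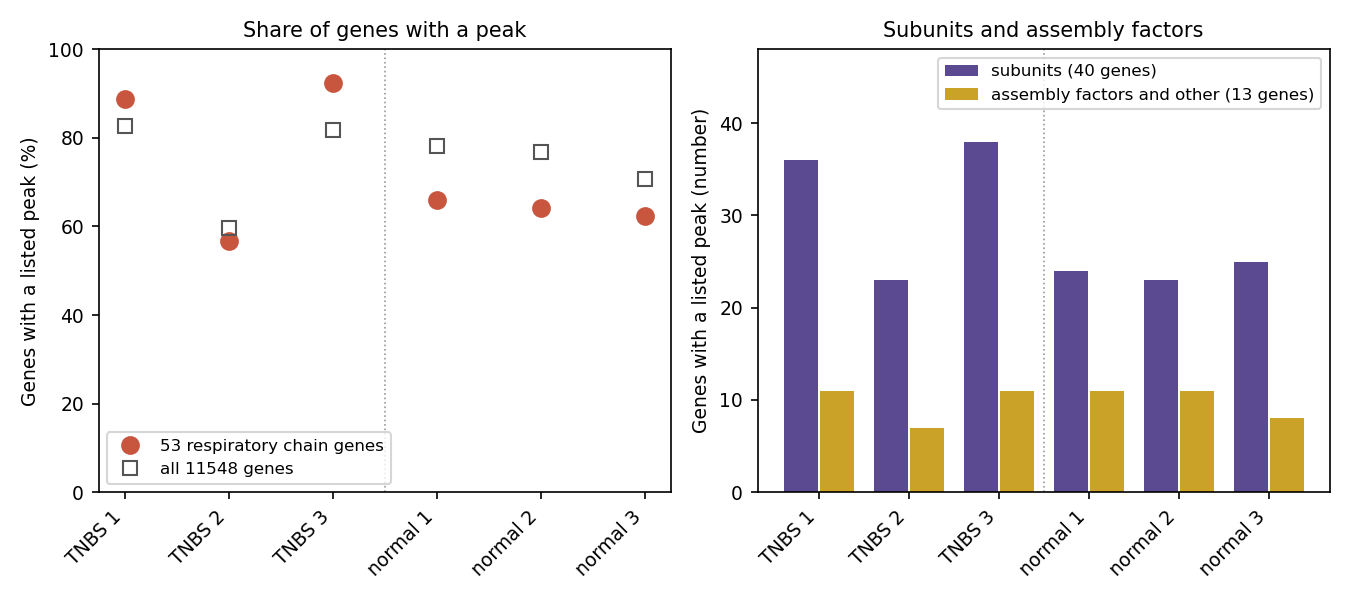
Left, the percentage of the 53 respiratory chain genes (filled circles) and of all 11548 genes (open squares) with a listed peak in each library; right, the number of subunit genes and of assembly or other genes with a listed peak. The 53 lie below all genes in the 3 normal libraries, with 62.3% to 66.0%, and above them in TNBS 1 and TNBS 3, with 88.7% and 92.5%.

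In TNBS 1 and TNBS 3 the subunit counts lay above every normal library, while the assembly counts were level with the highest normal libraries. Of the 40 subunit genes, 36, 23 and 38 had a peak in TNBS and 24, 23 and 25 in normal colon. Of the 13 assembly and other genes, 11, 7 and 11 had one in TNBS and 11, 11 and 8 in normal colon. The subunit means were 32.3 ± 8.14 in TNBS and 24 ± 1 in normal colon, and the assembly means 9.67 ± 2.31 in TNBS and 10 ± 1.73 in normal colon (SD, n = 3 each). Whether the TNBS-to-normal difference itself differs between subunits and assembly genes was not tested.

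Counted by gene, 20 of the 53 (37.7%) were listed more often in TNBS than in normal colon, where the background over all genes was 21.1%. Another 8 (15.1%) were listed less often in TNBS, against 23.9% of all genes, and 25 had it in equal numbers. A difference of 2 or 3 libraries toward TNBS was seen in 10 genes (18.9%), against 6.74% of all genes, and toward normal in none, against 5.69% of all genes. Ndufs6, Ndufs5 and Cox17 reached such a difference toward normal under alternatives given below. The median difference was 0 in the 53 and over all genes. Genes listed in TNBS libraries alone entered the 53 only through those lists. They numbered 6 in TNBS 1 and TNBS 3, 4 in TNBS 3 and 2 in all 3 TNBS libraries. There was also 1 in TNBS 1 and 1 in TNBS 1 and TNBS 2. Those listed in normal libraries alone numbered 1 in normal 1 and 1 in normal 2. The excess toward TNBS is thus a description and was not tested. Of the 8 with fewer TNBS libraries, 6 lacked a peak in TNBS 2 alone. That pattern was held by 11.3% of the 53, near its background of 11.5% of all genes. The 6 were Ndufa11, Ndufs5, Ndufs6, Cox6a1, Cox17 and Atp5j2. The others of the 8 were Ndufaf6 and Ndufaf7, each with 1 peak in 1 normal library.

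**Figure D2:**
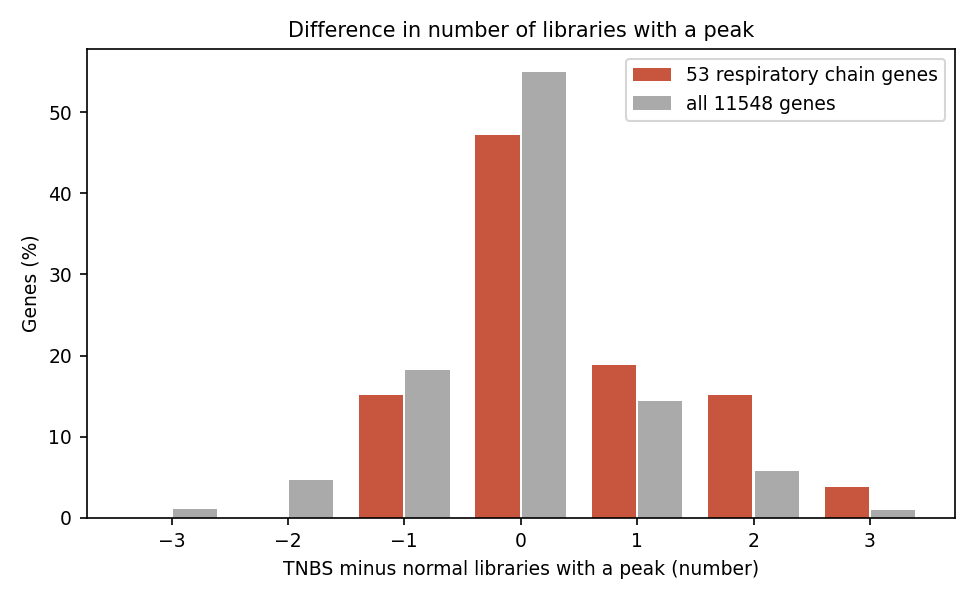
Percentage of genes (vertical axis) by the number of TNBS minus the number of normal libraries with a listed peak (horizontal axis), for the 53 respiratory chain genes and for all 11548 genes. The 53 have no gene at −2 or −3 and 18.9% at 2 or 3, where all genes have 6.74%. Genes listed in TNBS libraries alone entered the 53 only through those lists.

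A peak in 3 of 3 TNBS and 0 of 3 normal libraries was found for 2 of the 53 genes (3.77%), Ndufb11 and Ndufs7, where the background was 0.996% of all genes. The opposite pattern, 3 of 3 normal and 0 of 3 TNBS libraries, was found for 0 of the 53, where the background was 1.04%. With the looser call of at least 2 TNBS and 0 normal libraries there were 9 genes (17%) against 5.51% of all genes, and with its reverse 0 against 2.72%. A peak in TNBS 1 and TNBS 3 alone was found for 6 genes (11.3%), against 3.65% of all genes. A peak in all 6 libraries was found for 23 genes (43.4%), against 48.1% of all genes. Without TNBS 2, 8 genes had a peak in both remaining TNBS libraries and in no normal one, where the background was 4.65%. TNBS 2 alone had 30 of the 53.

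**Figure D3:**
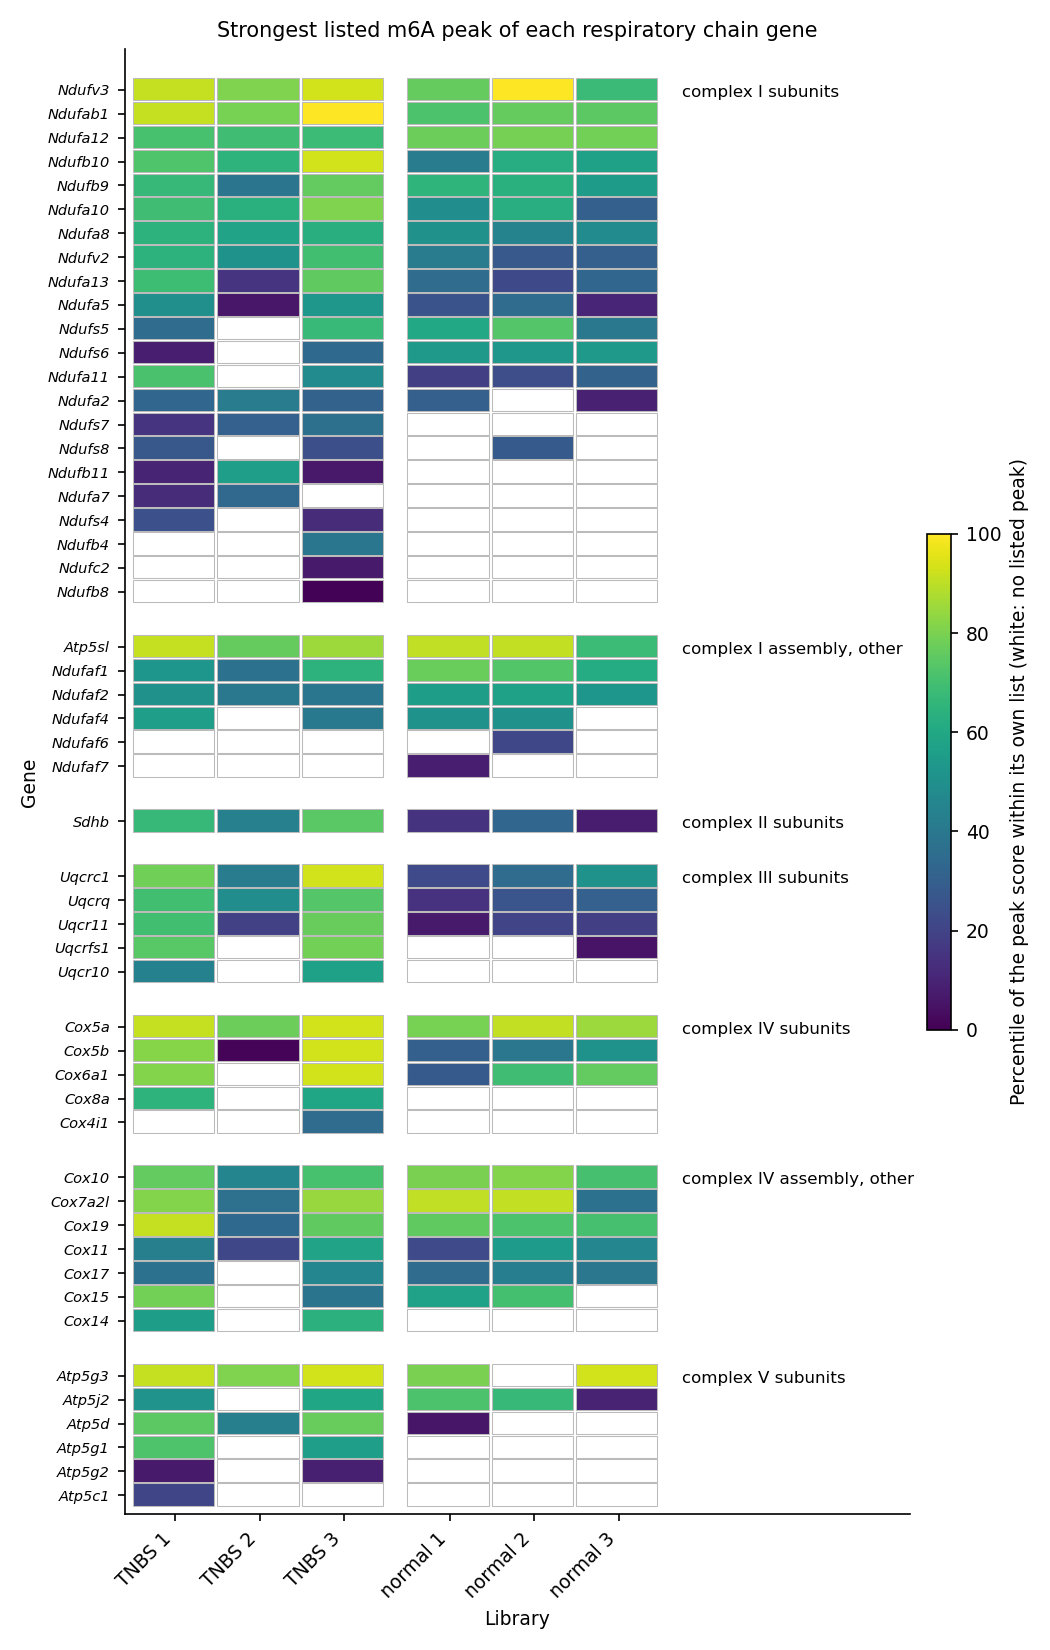
Strongest listed peak of the genes reported here (rows, grouped by complex) in each library (columns), coloured by the percentile of its score among all peaks of the same list; white means no listed peak. Ndufb11 and Ndufs7 are coloured in the 3 TNBS columns and white in the 3 normal ones, and 23 genes are coloured throughout.

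Beside the presence of a peak, each peak has the fold enrichment of pull-down over input signal and a score that grows as the p-value of the caller shrinks. Both are the authors' values. They are given in every library to show the size of the peaks, and since each was set against its own input and the lists differ in length, no change between groups is read from them. Percentiles are ranks of the score within 1 list, with ties averaged. The weakest peak that brought a gene in was that of Ndufb8, in TNBS 3, with a score of 51.16, and the lowest score listed in any library was 50. Genes just outside have no listed value. Across the 53, the median percentile of a gene's strongest peak was 66.9, 42.3 and 63.9 in the TNBS lists and 50.2, 55.6 and 47.7 in the normal lists. Over all genes it was 65.2, 58.8 and 65.8 in TNBS and 63.8, 63.8 and 61.5 in normal lists.

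Complex I, the NADH dehydrogenase, had 29 of its 48 annotated genes of the name pattern in the lists. Its 23 subunit genes with a peak numbered 20, 15 and 22 in TNBS and 14, 15 and 15 in normal libraries. TNBS 2 was level with the highest normal libraries and the other two TNBS libraries lay above them. Of the 23, 10 were listed in more TNBS libraries, 10 in equal numbers and 3 in fewer. The catalytic core of the enzyme was covered in part. Ndufs7, Ndufs8 and Ndufv2, core subunits that hold iron-sulfur clusters, had peaks, while the core genes Ndufs1, Ndufs3 and Ndufv1 had none in any library.

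Ndufs7 (gene ID 75406, chr10:80249105-80256794, plus strand) encodes the core subunit that holds the last iron-sulfur cluster before ubiquinone. It had 1 peak in each TNBS library, with fold enrichments of 5.78, 4.87 and 5.85, and none in normal 1, 2 or 3. The peaks did not share a position. In TNBS 1 the peak was at chr10:80249312-80249491 and in TNBS 2 at chr10:80249440-80249491, both near the gene start, while in TNBS 3 it was at chr10:80255924-80256012, 782 bases before the gene end. No single region of Ndufs7 was therefore listed in 3 TNBS libraries. The percentiles of these peaks were 15.0, 30.7 and 36.7, so all were in the lower part of their lists.

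Ndufb11 (gene ID 104130, chrX:20615326-20617619, minus strand) encodes an accessory subunit of the membrane arm. Its fold enrichments were 5.27, 7.34 and 6.87 in TNBS 1, 2 and 3, and no normal library listed it. The TNBS 1 and TNBS 3 peak covered the last 217 bases of the gene, chrX:20615326-20615542, at percentiles of 10.1 and 6.4. The TNBS 2 peak covered the first 560 bases, chrX:20617060-20617619, at a percentile of 55.9. That start lies beside the neighbouring gene Rbm10, and peaks named Rbm10 that reached into Ndufb11 were listed in TNBS 1, TNBS 3 and normal 2, within chrX:20617503-20618082. When these overlapping names are counted for Ndufb11, its call is lost and 1 gene, Ndufs7, is left.

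**Figure D4:**
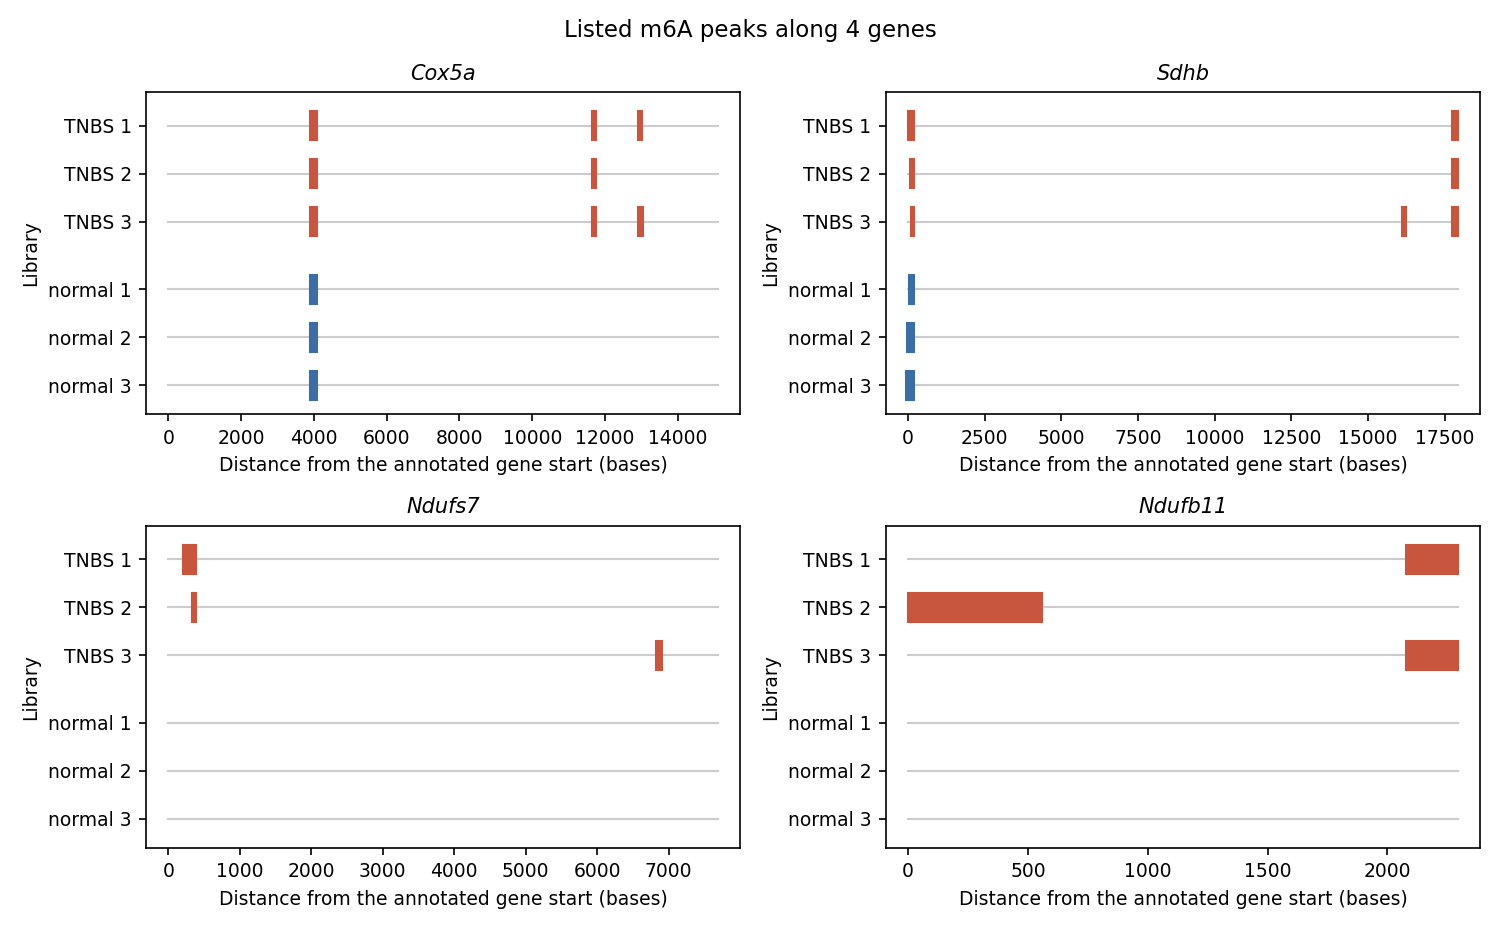
Listed peaks (bars) along Cox5a, Sdhb, Ndufs7 and Ndufb11 in each library, by distance in bases from the annotated gene start, with TNBS libraries above normal ones. Cox5a and Sdhb have one position listed in all libraries near a start and further positions in TNBS libraries, while the TNBS peaks of Ndufs7 and Ndufb11 fall at different ends of the gene.

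Among the other complex I subunits, Ndufs4 was listed in TNBS 1 and TNBS 3 alone. Ndufs4 encodes an accessory subunit needed for a stable enzyme, and its human counterpart is mutated in Leigh syndrome. Its start peak at chr13:114387959-114388094 had fold enrichments of 8.52 in TNBS 1 and 10.4 in TNBS 3, and a second peak at chr13:114351448-114351526 had 5.71 and 5.51. TNBS 2 and the 3 normal libraries listed none. Ndufa7, an accessory subunit, had a peak at the gene end in TNBS 1 and TNBS 2 alone, at chr17:33838099-33838316 in TNBS 1, with fold enrichments of 5.36 and 7.75. Ndufs8, a core iron-sulfur subunit, had peaks in TNBS 1 and 3 and in normal 2, with 8.55, 7.98 and 5.08. Ndufb4, Ndufb8 and Ndufc2, accessory subunits of the membrane arm, each had a single peak, in TNBS 3, with 7.87, 5.65 and 8.64.

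Ndufa2, an accessory subunit, had a peak at one end of the gene in TNBS 1 and TNBS 3, with fold enrichments of 6.14 and 7.28, and in normal 1 and 3, with 5.49 and 3.54. The TNBS 2 peak of Ndufa2, with 11.2, lay at the opposite end. Peaks named Tmco6 overlapped Ndufa2 in 2 TNBS and 3 normal libraries.

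A peak in all 6 libraries was found for 10 complex I subunits. Ndufv3, an accessory subunit of the flavin module where NADH binds, had the highest mean percentile of the complex, 84.8. Its main peak, chr17:31527310-31528401, is 1092 bases long and lies inside the gene, and its fold enrichments were 24.0, 14.7 and 33.0 in TNBS and 18.6, 19.4 and 13.2 in normal libraries. Smaller Ndufv3 peaks at the start, chr17:31520115-31520261, and at the end, chr17:31531110-31531325, were listed in TNBS 1 and TNBS 3 alone. A peak at chr17:31521569-31521692 was listed in TNBS 1, TNBS 3 and normal 2, at folds of 8.02, 10.9 and 2.70.

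Ndufab1 encodes the mitochondrial acyl carrier protein, which serves in fatty acid synthesis and is also a complex I subunit. All 6 libraries listed the same 232 bases over its start, chr7:122101655-122101886, with fold enrichments of 60.4, 34.2 and 63.5 in TNBS and 12.95, 23.2 and 14.4 in normal libraries. The peak stood high in every list, at percentiles between 71.8 and 100. Ndufb10, an accessory subunit of the membrane arm, likewise had its only peak over its start. The Ndufb10 folds were 13.6, 6.61 and 26.9 in TNBS and 5.63, 6.23 and 6.95 in normal libraries.

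The remaining complex I subunits with a peak in all 6 libraries were Ndufa5, Ndufa8, Ndufa10, Ndufa12, Ndufa13, Ndufb9 and Ndufv2. Ndufa12, an accessory subunit, kept a high place throughout, at percentiles of 70.7, 69.4 and 68.3 in TNBS and 77.6, 79.1 and 78.8 in normal lists. Ndufa5, an accessory subunit, was near the bottom of some lists, with percentiles of 49.8, 5.9 and 53 in TNBS and 25.5, 35.0 and 10.5 in normal lists. Presence in all 6 libraries thus covered both strong and weak peaks. Ndufa10, an accessory subunit of the membrane arm, had fold enrichments of 19.3, 15.5 and 37.0 in TNBS and 12.9, 17.3 and 10.2 in normal libraries. Ndufa8, another accessory subunit, had 21.4, 14.2 and 30.1 in TNBS and 12.8, 13.6 and 9 in normal libraries. Ndufb9, of the membrane arm, had 21.4, 7.53 and 34.2 in TNBS and 18.5, 14.7 and 11.6 in normal libraries. In these 3 genes TNBS 3 had the largest value, and TNBS 2 lay among or below the normal libraries for Ndufa10 and Ndufb9. Ndufv2, a core iron-sulfur subunit of the flavin module, had 14.7, 5.52 and 22.3 in TNBS and 8.83, 6.29 and 5.02 in normal libraries. Ndufa13, an accessory subunit first known as the cell death regulator GRIM-19, had a peak at chr8:69894182-69894410 with 12.5 and 22.9 in TNBS 1 and 3 and 6.77, 8.40 and 7.67 in normal libraries. TNBS 2 did not list that position and had its one Ndufa13 peak at the other end of the gene, with 5.24. Peaks named Tssk6, a neighbouring gene, reached into Ndufa13 in 2 TNBS and 3 normal libraries.

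The complex I assembly genes did not follow the subunits in number. Of the 6, 4, 3 and 4 had a peak in TNBS libraries and 5, 5 and 3 in normal libraries. Ndufaf1, which helps to build the membrane arm, had a peak in all 6, with fold enrichments of 8.22, 7.33 and 13.9 in TNBS and 19.4, 13.9 and 9.39 in normal libraries. Ndufaf2, another assembly factor, also had one in all 6, as did Atp5sl (now named Dmac2), whose name matches the pattern of complex V but whose product acts in complex I assembly. The strongest Ndufaf2 peak had folds of 20.1, 11.4 and 16.4 in TNBS and 29.3, 24.2 and 19.0 in normal libraries. Atp5sl had the highest mean percentile of the 6, 83.7, with folds of 37.5, 21.5 and 49.5 in TNBS and 24.6, 17.6 and 12.4 in normal libraries. Ndufaf4, an assembly factor, was listed in TNBS 1, TNBS 3, normal 1 and normal 2. Ndufaf6 had a listed peak of 3 bases in normal 2, and Ndufaf7, an assembly factor, had a peak in normal 1 with a fold of 6.06.

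Complex II, succinate dehydrogenase, was represented by Sdhb alone, and Sdha, Sdhc and Sdhd had no listed peak. Sdhb encodes its iron-sulfur subunit. All 6 libraries had a peak ending at chr4:140961476 just after the gene start. Its fold enrichments were 20.7, 5.31 and 36.0 in TNBS and 7.18, 8.13 and 6.56 in normal libraries. The start of this peak differed between lists, and in TNBS 2 and TNBS 3 it began 67 and 98 bases into the gene. A second region, chr4:140979025-140979193, 169 bases that stop 5 bases before the gene end, was listed in TNBS 1, 2 and 3 with folds of 13.04, 3.68 and 17.4 and in no normal library. Its percentiles were 67.0, 20.2 and 74.2.

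Complex III, which passes electrons from ubiquinol to cytochrome c, had 5 of 8 annotated genes in the lists. They numbered 5, 3 and 5 in TNBS and 3, 3 and 4 in normal libraries, and the groups overlapped. Uqcrc1, a core protein, had the highest mean percentile of the complex, 53.4. The peak at chr9:108937016-108937156 had fold enrichments of 20.0, 11.1 and 63.7 in TNBS and 7.48, 6.65 and 7.96 in normal libraries. Uqcrc2, the other core protein, had no listed peak.

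Uqcrq and Uqcr11, small subunits, also had a peak in every library. The strongest Uqcr11 peak had folds of 21.0, 4.40 and 22.6 in TNBS and 5.60, 6.44 and 4.78 in normal libraries. For the Uqcrq peak ending at chr11:53429150 they were 24.7, 11.2 and 35.3 in TNBS and 7.32, 7.17 and 7.91 in normal libraries. In both genes TNBS 1 and TNBS 3 had the largest values and TNBS 2 lay nearer the normal libraries. Uqcr10, another small subunit, was listed in TNBS 1 and TNBS 3 alone. Its end peak, chr11:4701968-4702220, had folds of 5.53 and 9.09, and TNBS 3 also listed a Uqcr10 start peak, with 7.84. Uqcrfs1, the Rieske iron-sulfur protein, had a start peak in TNBS 1, TNBS 3 and normal 3, with folds of 5.98, 9.46 and 3.35. A longer Uqcrfs1 peak near the gene end was listed in TNBS 1 and TNBS 3 alone, with 5.67 and 7.82. Uqcrb had no peak under its own name, and peaks named Gm10767 overlapped it in TNBS 1, TNBS 3, normal 1 and normal 2.

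Complex IV, cytochrome c oxidase, had 12 of 29 annotated genes in the lists, and these were mostly assembly factors. Of 19 annotated subunit genes 5 had a peak, and of 10 assembly or other genes 7. The subunits numbered 4, 2 and 5 in TNBS and 3, 3 and 3 in normal libraries, and the assembly genes 7, 4 and 7 in TNBS and 6, 6 and 5 in normal libraries. Cox6b1, Cox6c, Cox7a2, Cox7b, Cox7c and Ndufa4, which is now counted with complex IV, had no listed peak. The isoform genes Cox4i2, Cox6a2, Cox6b2, Cox7a1, Cox7b2, Cox8b and Cox8c, used mainly in other tissues, had none either.

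Cox5a, a nuclear-encoded subunit beside the catalytic core, had the highest mean percentile of complex IV, 86.2. All 6 libraries listed the same 184 bases at an annotated start, chr9:57521232-57521415, with fold enrichments of 54.1, 17.3 and 134 in TNBS and 37.1, 33.4 and 33.2 in normal libraries. TNBS 2 had the lowest of these values and TNBS 3 the highest. A second region, chr9:57528956-57529072, 117 bases inside the gene, was listed in TNBS 1, 2 and 3 with folds of 7.53, 3.32 and 14.6 and in no normal library. A further peak starting at chr9:57530241 was listed in TNBS 1 and TNBS 3, with 3.42 and 7.75.

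Cox5b had 1 peak in each library, over its start, with folds of 13.5, 3.53 and 19.0 in TNBS and 5.05, 4.43 and 4.52 in normal libraries. The TNBS 2 peak was at the bottom of its list, at a percentile of 1.1, and began 45 bases into the gene. Cox8a, a small subunit, had a start peak in TNBS 1 and TNBS 3 alone, with folds of 11.1 and 12.9. Cox6a1 had folds of 17.6 in TNBS 1, 20.8 in TNBS 3 and 3.55, 8.06 and 6.47 in normal libraries, with none listed in TNBS 2. Cox4i1, the subunit through which ATP is known to inhibit the enzyme, had a single peak, in TNBS 3, with a fold of 7.33.

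Among the assembly genes, Cox10 and Cox15 make the heme of the enzyme, and Cox11, Cox17 and Cox19 serve in copper delivery. Cox10 had a peak in every library, with folds of 16.3, 7.44 and 18.5 in TNBS and 29.7, 22.3 and 14.2 in normal libraries. Cox15 had overlapping peaks in TNBS 1, normal 1 and normal 2, with 18.7, 19.4 and 11, and peaks at other positions in TNBS 3, the strongest with 13.2. Peaks named Cutc reached into its start in all 6 libraries. Cox11 had a peak in every library, with 11.2, 8.55 and 17.5 in TNBS and 10.1, 17.6 and 11.5 in normal libraries. Cox19 had 25.8, 5.65 and 20.6 in TNBS and 16.3, 13.2 and 11.3 in normal libraries. Cox7a2l, a factor that joins complexes III and IV, had 9.48, 6.99 and 13.2 in TNBS and 14.3, 12.4 and 8.20 in normal libraries. For these genes TNBS and normal values overlapped. Cox17 lacked one in TNBS 2. Cox14, which acts early in the assembly of the core, had peaks at both ends of the gene in TNBS 1 and TNBS 3 alone. The Cox14 end peak, chr15:99727645-99728136, had folds of 12.9 and 21.4, and the start peak, chr15:99725618-99725848, had 6.65 and 8.98.

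Complex V, the ATP synthase, had 6 of 17 annotated genes in the lists, and none of them had a peak in all 6 libraries. They numbered 6, 2 and 5 in TNBS and 3, 1 and 2 in normal libraries. TNBS 1 and TNBS 3 lay above the normal libraries and TNBS 2 among them. More TNBS than normal libraries listed 5 of the 6, and fewer listed 1, Atp5j2. The catalytic subunits, encoded by Atp5a1 and Atp5b, had no listed peak.

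The 3 genes Atp5g1, Atp5g2 and Atp5g3 encode the same mature c subunit, which forms the rotating ring. Atp5g3 had one of the strongest peaks of all 53 genes, 106 bases at chr2:73910955-73911060, with folds of 51.7, 18.7 and 39.1 in TNBS, 17.03 and 11.5 in normal 1 and 3, and none in normal 2. Atp5g1 was listed in TNBS 1 and TNBS 3 alone, with 22.8 and 17.1 for its strongest peak. Atp5g2 was also listed in TNBS 1 and TNBS 3 alone, at the gene end, with 5.83 and 4.72 and percentiles of 6.8 and 9.0. The c subunit genes thus ranged from the top to the bottom of the lists.

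Atp5d encodes the delta subunit of the central stalk. Its end peak, chr10:80145423-80145818, had folds of 14.3, 5.89 and 16.8 in TNBS 1, 2 and 3, 5.91 in normal 1, and none in normal 2 or 3. A start peak, chr10:80142041-80142606, had folds of 18.7 and 26.7 in TNBS 1 and TNBS 3 alone. With scores of 100 or more, the normal 1 peak, at 64.35, drops out, and Atp5d is then the one gene of the 53 called in TNBS. Atp5c1, the gamma subunit that turns within the catalytic head, had 1 peak, in TNBS 1, with a fold of 7.76. Atp5j2, the f subunit of the membrane part, had peaks at several positions. The one at chr5:145184386-145184648 had folds of 15.0 and 16.8 in TNBS 1 and 3, none in TNBS 2, and 9.26, 7.92 and 9.63 in normal libraries. The strongest Atp5j2 peaks of normal 1 and normal 2, with 24.2 and 16.5, lay over its start, where no TNBS library listed one.

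Merging overlapping peaks of the 6 lists gave 104 regions in these genes, of 26654 in all. A region in 3 of 3 TNBS and 0 of 3 normal libraries was found 2 times, the Sdhb end and the inner Cox5a region given above, where the background was 0.949% of regions. The reverse was found 0 times, where the background was 1.54%. More TNBS than normal libraries were found for 52 regions (50%), against 34.2% of all regions, and fewer for 21 (20.2%), against 28.1%. Regions in TNBS 1 and TNBS 3 alone numbered 23 (22.1%), against 6.94% of all regions. Both called regions had their lowest fold in TNBS 2, 3.68 and 3.32, and with a minimum fold of 4 neither was called.

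The rule did not use the position of a peak, and the peaks of these genes often covered gene starts. A start peak was counted where a listed peak overlapped the first 50 transcribed bases of an annotated RefSeq start, and 46 of the 53 genes had such a window. In at least 1 library 31 of 46 (67.4%) had a start peak, against 45.4% of the 8851 genes with a window. Respiratory chain genes are short, with a median span of 7690 bases against 24846 over all genes. Among genes of up to 10 kb the shares were 69.0% (20 of 29) and 44.5%. Peaks over the last 50 bases of the gene were found for 47.8% of the 46 and for 40.2% of all genes, and among genes of up to 10 kb for 51.7% and 58.0%. Among short genes, then, the respiratory chain share lay above that of all genes at the start and below it at the end.

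Of the genes with a peak in a given library, those with a start peak were 59.5%, 50% and 55.8% of the respiratory chain genes in TNBS and 51.6%, 55.2% and 53.6% in normal libraries. Over all genes the shares were 39.6%, 31.2% and 41.1% in TNBS and 34.0%, 35.8% and 33.8% in normal libraries. The respiratory chain share was the higher in every library. It did not separate the groups, at 55.1 ± 4.80% in TNBS and 53.5 ± 1.78% in normal libraries (SD, n = 3 each). A start peak in all 6 libraries was found for 10 genes, Ndufa5, Ndufa8, Ndufa10, Ndufa12, Ndufab1, Ndufb10, Ndufaf2, Cox5a, Cox5b and Cox11. In TNBS 1 and TNBS 3 alone it was found for Atp5d, Cox8a, Cox14, Ndufs4 and Ndufv3, and in TNBS 1 and TNBS 2 alone for Ndufs7. In the other direction, Atp5j2 had a start peak in normal 1 and normal 2 alone. By this window Sdhb had one in 1 TNBS and 3 normal libraries. All 6 libraries listed that Sdhb region, but its peaks in TNBS 2 and TNBS 3 began past the first 50 bases. The share of all genes with each of these start patterns was not counted, so none is read as particular to these genes. Antibodies against m6A are known to bind m6Am beside the cap as well, and the lists do not separate these modifications.

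**Figure D5:**
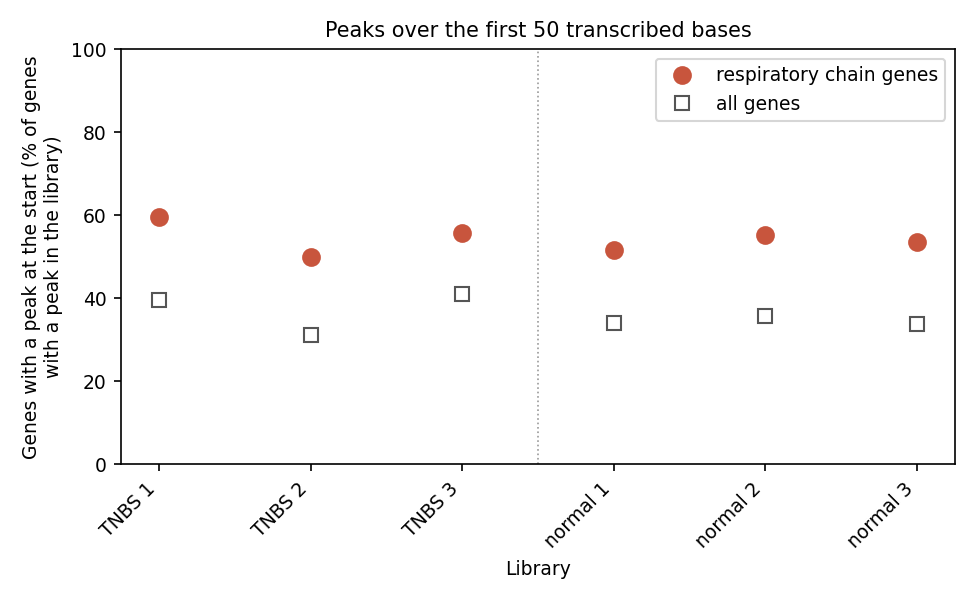
Percentage of genes with a peak in the library whose peak covers the first 50 transcribed bases (vertical axis) in each library, for the respiratory chain genes (filled circles) and for all genes (open squares). The respiratory chain genes lie between 50% and 59.5%, above the all-gene share of 31.2% to 41.1% in every library.

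The 300-base promoter windows of these genes, 250 bases before and 50 after the start, were read on both strands for 3 motifs of transcription factors known to drive nuclear genes of mitochondria. The full NRF1 consensus was found in 5 of 46 (10.9%), against 2 of 40 (5%) of the pattern genes without a peak, 2.98% of all genes with a peak and 2.01% of all protein-coding genes. The YY1 core AAGATGGC was found in 7 of 46 (15.2%), against 7 of 40 (17.5%) of the pattern genes without a peak, 4.92% of all genes with a peak and 3.57% of all protein-coding genes. The ETS core CCGGAAG, bound by the factor GABP, was found in 9 of 46 (19.6%), against 15 of 40 (37.5%) of the pattern genes without a peak, 17.7% of all genes with a peak and 12.9% of all protein-coding genes. The ETS share thus lay near that of all genes with a peak. The printed Sdhb stretch holds this core inside its capitals. Such a match describes the letters and is not a bound site. The letters GGAC, the core of the m6A consensus, were read on the transcript strand of the first 50 transcribed bases. They were found in 10 of 46 (21.7%), against 11 of 40 (27.5%) of the pattern genes without a peak. The shares were 24.3% of all genes with a peak and 22.9% of all protein-coding genes. The starts of the 46 therefore held that core about as often as other genes. Its presence inside peaks further along could not be read without the genome.

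The genes of the name pattern with and without a listed peak had similar spans, with medians of 7690 bases for the 53 with a peak and 7082 bases for the 53 without. Listed peaks of the 53 were shorter than those of other genes, with median lengths of 212, 198 and 193 bases in TNBS and 229, 223 and 232 bases in normal lists. Over all peaks the medians were 518, 616 and 477 bases in TNBS and 623, 608.5 and 656 bases in normal lists. The authors' deposited pathway column placed 45 of the 53 in oxidative phosphorylation. The 8 it left out, Atp5sl, Cox14, Cox19, Ndufaf1, Ndufaf2, Ndufaf4, Ndufaf6 and Ndufaf7, are all assembly factors.

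Related genes outside the name pattern were counted in the same libraries. Of 20 further genes of the chain, such as those for cytochrome c1 and coenzyme Q synthesis, 11 had a peak, and these numbered 8, 5 and 11 in TNBS and 6, 6 and 7 in normal libraries. Cyc1, cytochrome c1 of complex III, had a peak in 2 TNBS and 0 normal libraries, the one gene of that list with a difference of 2 or more. Of 33 other assembly factors, 26 had a peak, 18, 17 and 21 in TNBS and 18, 17 and 15 in normal libraries. Coa3 and Uqcc1, assembly factors of complexes IV and III, were listed in 2 TNBS and 0 normal libraries, and Pet100, of complex IV, in 3 TNBS and 1 normal. None of the 13 subunits encoded in mitochondrial DNA had a listed peak, and the lists held no peak on the mitochondrial chromosome.

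Of 19 genes of the TCA cycle and its entry steps, 12 had a peak, 11, 8 and 11 in TNBS and 8, 9 and 8 in normal libraries. Mdh2, mitochondrial malate dehydrogenase, had one in 3 TNBS and 0 normal libraries, and Cs, citrate synthase, in 2 and 0. Pcx, pyruvate carboxylase, went the other way, with 1 TNBS and 3 normal libraries. Of 16 regulators of mitochondrial gene expression, 13 had a peak, 13, 10 and 12 in TNBS and 12, 12 and 12 in normal libraries. Esrra, a nuclear receptor that drives genes of oxidative metabolism, had one in 3 TNBS and 0 normal libraries, and Gabpb1, a subunit of the factor GABP, in 1 and 3. In each of these 4 lists TNBS 2 had the fewest genes with a peak of the 3 TNBS libraries.

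Markers of the cell types in the tissue were counted the same way. Colon epithelium markers with a peak numbered 6, 4 and 8 of 11 in TNBS and 5, 6 and 4 in normal libraries, and Cdx1, Cdx2, Krt20 and Vil1 had one in all 6. Smooth muscle markers numbered 7, 6 and 7 of 9 in TNBS and 5, 5 and 7 in normal libraries, and leukocyte markers 4, 2 and 3 of 10 in TNBS and 5, 4 and 3 in normal libraries. Ptprc, the pan-leukocyte marker, had a peak in 0 TNBS and 2 normal libraries, and S100a9, a neutrophil marker, in 2 TNBS and 0 normal libraries. Acta2, of smooth muscle, and Fabp4, of adipocytes, had one in 2 TNBS and 0 normal libraries, and the adipocyte marker Adipoq in 1 TNBS and 3 normal libraries. Enteric neuron and glia markers numbered 3, 2 and 3 of 8 in TNBS and 2, 4 and 4 in normal libraries. Skeletal and cardiac muscle markers, from a tissue rich in mitochondria, numbered 1, 1 and 1 of 8 in TNBS and 2, 1 and 1 in normal libraries, and adipocyte markers 1, 1 and 3 of 6 in TNBS and 1, 1 and 2 in normal libraries. No peak was listed in any library for the epithelial markers Cdh1, Krt18 and Krt19, the leukocyte markers Cd3e, Adgre1 and S100a8, or the smooth muscle marker Tagln. A marker's peak depends on its methylation as well as its level, and the part of cell composition in the respiratory chain counts was not tested.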

How the data were processed

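N6-methyladenosine immunoprecipitation sequencing covered 12 libraries, 6 pulled down and 6 input, and gave 6 peak lists, 3 TNBS and 3 normal, grouped by the labels. Per the submitters' processing notes, CASAVA 1.8, BWA and the genome build hg19 were used. That build is human, whereas the deposited positions fall in mouse genes: the listed start was 1 below the GRCm38.p6 gene start in 2682 peaks and equal to it in 161, so starts were counted from 0, and positions are printed counted from 1. Peak names carry MACS numbering, per the file headers and names, and peaks were called per sample. The caller's settings, strand and read depth are not given in the sources used here. The authors deposited a score per peak, which is −10 × log10 of the p that the caller assigned (lowest score 50, a p of 1e-05), a fold enrichment (a ratio of pulled-down to input signal), a false discovery rate in percent, and a peak length in bases.

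From these, presence of a listed peak per gene symbol was counted with pandas 2.3.3 on Python 3.11.15. Regions merged peaks sharing a base. A gene was called for a group whose 3 libraries all listed it while none of the others did, and the share of all genes or regions called the same way is printed beside the count. No p-value is given over the 53 genes. The calling step was run on simulated data with planted genes of exactly the called pattern, which checks the code and gives no error rate. Promoter windows and gene spans came from RefSeq, GRCm38.p6, and 46 genes matched a promoter window. Of the name pattern's 106 annotated genes, Atp5sl was matched by gene identifier.

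The genes and lists were chosen with earlier results of these data known. The text names with values each gene called in a group, differing by 2 or 3 libraries, present in all 6 libraries, highest in mean percentile in its complex, or overlapped by peaks of another name; others are named by their libraries. In the related and marker lists, genes differing by 2 or 3 libraries are named. Alternatives were a score of 100 or more, a fold of 4 or more, the same number of peaks per list, gene assignment by overlap, subunits alone, a call at 2 of 3, an overlap of 50%, pairing by number and leaving out each library. Some genes that the rule takes are counted but not reported here by name.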

Additional observations from a re-analysis of the deposited data

How the results depend on the processing

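Under the alternatives run, the difference in genes with a peak per library and the difference in share relative to all genes stayed positive; leaving out 1 library gave 4.5 to 14 genes, with 14 without TNBS 2, and 12.6 to 19.5 points. For subunits alone the share difference was 21.4 points. Calls were less stable. Genes called in TNBS numbered 1 with a score of 100 or more (Atp5d; 0.71% of all genes), 1 with gene assignment by overlap (Ndufs7; 1.02%), 9 with a call at 2 of 3 (5.51%), and 1 (Ndufs7; 0.987%) when peaks of other names were counted, an alternative chosen after seeing the data. With the same number of peaks per list, TNBS calls numbered 3 (Atp5d and Uqcr11 among them; 1.19% of all genes), normal calls 1 (Ndufs6; 1.82%), and 13 genes were listed throughout. The share of all genes listed throughout was counted in the main setting alone (48.1%), so counts of such genes under the alternatives have no background. Regions called in TNBS numbered 1 with a score of 100 or more (0.78% of all regions), 0 with a fold of 4 or more (0.932%) and 6 with the same number of peaks (1.53%), and those called in normal colon 2 (1.75%), 0 (1.55%) and 2 (2.59%). Leaving out 1 library gave 2 to 8 genes called in TNBS, with 8 without TNBS 2 (4.65% of all genes), 0 called in normal colon (1.26% to 3%), and 23 to 29 genes present throughout. It gave 2 to 25 regions called in TNBS, with 25 without TNBS 2 (8.11% of all regions) and 4 without TNBS 3 (1.47%), and 0 to 2 in normal colon (1.83% to 3.56%). Some of these settings leave fewer libraries or peaks, and the cause of these changes was not tested. With replicate number as a block the differences were 8 genes and 15.7 points. By arithmetic these equal the differences of the group means, so this setting could not change them. Deviations of peak presence from the group mean correlated at 0.0319, −0.0537 and −0.0356 between same-numbered libraries across genes. Between differently numbered TNBS and normal libraries they correlated at −0.0522 to 0.071. These values do not decide whether the numbers pair the samples. Read depth is unknown, so a gene without a listed peak has no upper limit on its methylation.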

Other observations

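The deposited pathway column placed 14 genes outside the name pattern in oxidative phosphorylation. Of these, 11 encode subunits or partners of the vacuolar proton pump, a separate enzyme that acidifies lysosomes (Atp6ap1, Atp6v0a1, Atp6v0a2, Atp6v0c, Atp6v0e, Atp6v1d, Atp6v1e1, Atp6v1f, Atp6v1g1, Atp6v1g2 and Tcirg1), and the others were Atp12a, Cyc1 and Ppa1. Only Cyc1 of the 14 is a respiratory chain subunit.

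Within the name pattern, the share of annotated genes with a listed peak differed by class: 23 of 39 complex I subunits, 1 of 4 complex II, 5 of 8 complex III, 5 of 19 complex IV and 6 of 17 complex V subunits had one, beside 6 of 9 complex I and 7 of 10 complex IV assembly or other genes. Of the 46 genes with a promoter window, 13 had both a start peak and an end peak when all libraries were pooled. The peaks at each end could come from different libraries, as in Ndufb11. Counted the same way, 1589 of the 8851 genes with a window had both.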
